A study of Mus musculus with 8 samples.

Results

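Dkk2, Wnt5a, Jag1 and Fgf2 are 4 genes for secreted or cell-surface ligands of the Wnt, Notch and FGF pathways. They were taken by gene name from 273 genes with deposited 5-hydroxymethylcytosine (5hmC) signal, and all 4 are among the 220 genes that the deposited tables mark UP in the knockout. The criterion behind that mark is not given in the sources used here. The genes were chosen by name with their measured 5hmC levels and knockout to control ratios in both tables already known. Those values are therefore given as a description with no test.

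The cells were primary myoblasts grown from mouse hindlimb muscle. The control group, CTRL, had the genotype Pax7 +/+; Psat1fl/fl, and the knockout group, Psat1KO, had Pax7 CRE+/-;Psat1fl/fl. Floxed Psat1, a gene of the serine synthesis pathway, was thus present in both groups, and only the knockout carried Cre, at Pax7, a locus active in muscle stem cells. An effect of the Cre allele and an effect of Psat1 loss cannot be told apart, and the labels give neither age nor the number of animals behind a library. All cultures grew in medium with 10% horse serum and 2.5 ng/mL bFGF, the protein that Fgf2 encodes. DNA enriched for 5hmC with an antibody was sequenced in 2 libraries per genotype. The input libraries were not analysed here.

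5hmC is the oxidised form of methylated cytosine that TET enzymes make, mostly at CG dinucleotides, and in many tissues it accumulates in the bodies of active genes and at enhancers. Wnt ligands such as Wnt5a signal through Frizzled and Ror receptors, and Dickkopf proteins such as Dkk2 bind the co-receptors Lrp5 and Lrp6 and modulate that signal. Jag1 is a membrane-bound ligand that activates Notch receptors on a neighbouring cell. Fgf2 is a growth factor for muscle progenitor cells. Notch and FGF signals regulate the quiescence and proliferation of muscle stem cells.

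Each gene has a row of bins of coverage signal per library, and its level is the mean over all of them. The level was taken as a value per position, though the scaling of the bins is not given. The values came in 2 tables, called set 1 and set 2, each with 1 CTRL and 1 Psat1KO library. The smallest step of the values implied 22.6 M reads for CTRL and 30.6 M for Psat1KO in set 1, and 69.8 M for each library of set 2. The mean UP gene then had a depth of 0.539 steps in CTRL and 0.720 in Psat1KO of set 1, and of 1.61 and 1.53 in set 2, where a step is what 1 read is worth. The window that the bins span is not given, so bin numbers cannot be turned into genome positions, exons or introns. The tables hold 5hmC and no expression, so the labelled cell type could not be checked. Of its markers they hold 3 of 9 myogenic genes, namely Pax7, Myf5 and Myf6, all marked DOWN.

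The genes lie on 3 chromosomes (RefSeq, GRCm38.p6). Dkk2 is at chromosome 3, 132085266 to 132180304, plus strand, and Fgf2 at chromosome 3, 37348477 to 37410106, plus strand. Wnt5a is at chromosome 14, 28504543 to 28527448, plus strand, and Jag1 at chromosome 2, 137081451 to 137116520, minus strand. Dkk2 is the longest at 95 kb, followed by Fgf2 at 61.6 kb, Jag1 at 35.1 kb and Wnt5a at 22.9 kb, where the median UP gene had 25.3 kb. Across the 220 UP genes, longer genes had slightly lower levels (Spearman rho -0.19, a description over genes that share libraries).

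The number of CG dinucleotides sets how many sites a promoter offers for 5hmC, and the members differ in it. The 250 bases before the start that the promoter table uses hold 7 CG dinucleotides for Dkk2 and 20 each for Jag1 and Fgf2. For Fgf2 that start lies inside the gene bounds given above, and the 74 bases outside them hold 2 of its 20. For Dkk2 the bases outside hold 6 of its 7, and for Jag1 all 250 lie outside. CG is its own reverse complement, so both strands give the same count. Among 27025 promoters, with the first listed start per gene, 46.5% hold at least as many as Dkk2 and 17.7% at least as many as Jag1 and Fgf2. Among 151 promoters of UP genes, these shares are 66.9% and 21.2%. The median count was 6 over all promoters and 10 over those of UP genes. The promoters of Dkk2 (chr3:132085042-132085265, plus strand, the 224 bases outside the gene bounds) and Jag1 (chr2:137116521-137116770, minus strand) show a lower and a higher count, from RefSeq GRCm38.p6, with CG in capitals.
Dkk2: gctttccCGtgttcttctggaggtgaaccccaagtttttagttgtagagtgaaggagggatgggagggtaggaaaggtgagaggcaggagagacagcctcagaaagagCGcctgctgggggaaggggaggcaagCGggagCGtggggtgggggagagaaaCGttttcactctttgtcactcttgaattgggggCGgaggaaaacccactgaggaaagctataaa
Jag1: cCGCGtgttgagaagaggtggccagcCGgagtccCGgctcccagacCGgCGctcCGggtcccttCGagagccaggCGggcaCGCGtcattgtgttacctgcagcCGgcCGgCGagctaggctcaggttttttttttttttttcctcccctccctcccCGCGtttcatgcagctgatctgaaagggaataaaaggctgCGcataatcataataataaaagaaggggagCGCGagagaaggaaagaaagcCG
Whether the bins cover these promoters is not known. Over the 151 UP genes with a promoter, the gene level did not follow the CG count (Spearman rho -0.0033, a description).

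The first question was where the 5hmC signal of the ligand genes, which was not corrected for input, lies among the UP genes. All 4 had levels within the range of the UP genes, most often below their median. Wnt5a and Fgf2 were below it in every library. Dkk2 was above it in both CTRL libraries, and Jag1 was above it in Psat1KO of set 1. The lowest place was that of Fgf2 in CTRL of set 1, at percentile 9.3. Ranked by the mean over the 4 libraries among the 220 UP genes, Jag1 was 121st from the highest, Dkk2 133rd, Wnt5a 134th and Fgf2 181st. The mean level was 0.0213 ± 0.00493 for Jag1, 0.0201 ± 0.00386 for Dkk2, 0.020 ± 0.00185 for Wnt5a and 0.0163 ± 0.00358 for Fgf2 (SD over all 4 libraries of both genotypes). Jag1, Dkk2 and Wnt5a thus differed from each other by less than their spread, and Fgf2 lay below Wnt5a by about its own SD. The median UP gene had 0.0226 and 0.0206 in CTRL and 0.0235 and 0.0218 in Psat1KO (set 1, then set 2).

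Dkk2, the Wnt modulator, was lower in Psat1KO in both sets. Its level was 0.0233 and 0.0235 in the CTRL libraries and 0.0175 and 0.0161 in the Psat1KO libraries. The groups did not overlap, and Dkk2 was the highest of the 4 ligand genes in both CTRL libraries and the lowest in both Psat1KO libraries. The CTRL mean of 0.0234 ± 0.000139 stood against a Psat1KO mean of 0.0168 ± 0.00105 (SD, n = 2 libraries), and their ratio was 0.718. Within set 1 the ratio was 0.753 and within set 2 it was 0.683. Both Psat1KO libraries lay below both CTRL libraries for 12.7% of the UP genes, 28 in all, and Dkk2 was known from this contrast.

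The depth behind these levels differed between the sets. In read units, which are the summed signal divided by the step of the library, Dkk2 rested on 53.3 in CTRL and 54.2 in Psat1KO of set 1, and on 166 and 113 in set 2. The exact Poisson 95% interval of the level in set 2 was 0.0201 to 0.0274 in CTRL and 0.0132 to 0.0193 in Psat1KO. In set 1 the intervals were 0.0174 to 0.0303 and 0.0131 to 0.0228. They describe the precision of each library and are no test of the difference, since they cover counting error only, and they are too narrow where neighbouring bins share a read. Ranked by the mean log2 ratio of both sets, Dkk2 was the 6th lowest of 220 UP genes, 30th lowest in set 1 and 3rd lowest in set 2.

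Wnt5a, which mainly drives Wnt signalling without beta-catenin, had levels that differed little between the genotype means. It was 0.0178 and 0.0202 in CTRL and 0.0223 and 0.0195 in Psat1KO, so the groups overlapped. The ratio of Psat1KO to CTRL was 1.25 in set 1 and 0.966 in set 2. The means were 0.0190 ± 0.00168 and 0.0209 ± 0.00197 (SD, n = 2), a difference about as large as the spread within each genotype.

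Jag1 was high in 1 library. It had 0.0206 and 0.0186 in CTRL and 0.0285 and 0.0176 in Psat1KO. The Psat1KO library of set 1 thus lay above the other 3 libraries, while that of set 2 was the lowest, and the groups overlapped. The ratio was 1.39 in set 1 and 0.947 in set 2, and the mean in Psat1KO, 0.0231 ± 0.00768 (SD, n = 2), carried the largest spread of the 4 genes. Without Psat1KO replicate 1 the log2 difference, 0.16 in all libraries, turned to -0.12.

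Fgf2 was low in 1 library. It had 0.0114 and 0.0175 in CTRL and 0.0199 and 0.0166 in Psat1KO, and the groups overlapped. The CTRL library of set 1 lay below the other 3, and its value rested on 26 read units, the fewest of any ligand gene. Its exact Poisson 95% interval was 0.00743 to 0.0167, against 0.0151 to 0.0254 for the Psat1KO library of the same set. The ratio was 1.75 in set 1 and 0.948 in set 2. Without CTRL replicate 1, the shallowest library, the log2 difference fell from 0.27 to 0.044, and without CTRL replicate 2 it was 0.50.

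**Figure D1:**
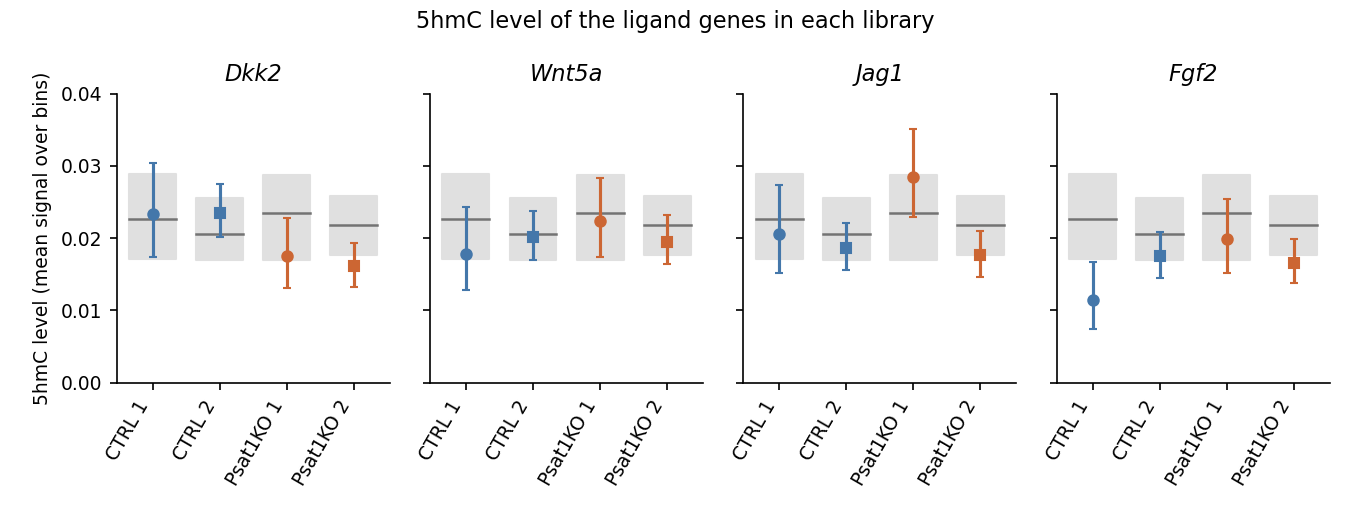
The 5hmC level (mean signal over the bins, linear axis) of each ligand gene is plotted for the 4 libraries, CTRL in blue and Psat1KO in orange, circles for set 1 and squares for set 2, with exact Poisson 95% intervals of counting error as bars. Grey boxes give the interquartile range of the 220 UP genes in each library and grey lines their median. Dkk2 is the gene whose Psat1KO values, 0.0175 and 0.0161, lie below both CTRL values.

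Wnt5a, Jag1 and Fgf2 each had a higher level in Psat1KO in set 1 and a slightly lower one in set 2. In set 2, the deeper set, their ratios lay between 0.947 and 0.966. Among the UP genes 17.3%, 38 of 220, were likewise higher in set 1 and lower in set 2. With the libraries of a genotype weighted by depth, an alternative chosen after seeing the data, the ratio of Psat1KO to CTRL was 1.04 for Wnt5a, 1.1 for both Jag1 and Fgf2 and 0.704 for Dkk2. Depth differed between the libraries of set 1, with 22.6 M against 30.6 M reads, and its part in these ratios was not tested.

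**Figure D2:**
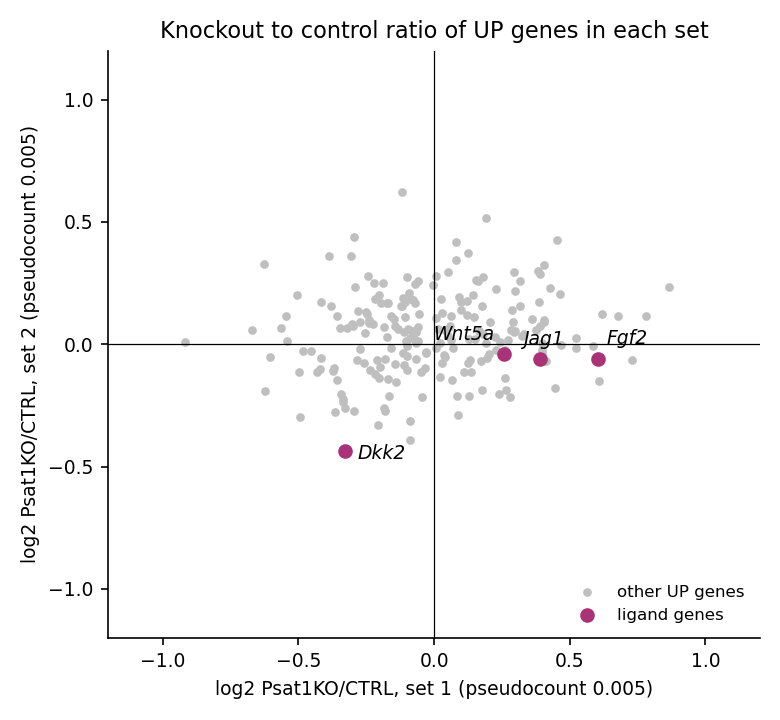
Each point is an UP gene, placed by its log2 ratio of Psat1KO to CTRL in set 1 (x axis) and set 2 (y axis), with a pseudocount of 0.005 added to the levels, and the 4 ligand genes are coloured and named. Dkk2 lies in the lower left area at -0.33 and -0.44, and the other three lie right of 0 in set 1 (0.26 to 0.60) and just below 0 in set 2. Of the UP genes, 2 lie outside the axes.

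Across all genes, no gene passed an adjusted p of 0.05 (limma on log2(level + 0.005), Benjamini-Hochberg), which is 0 of 273 or 0% of those tested. The ligand genes are thus among the genes not called, and nothing is read from that. In this fit 8 genes had an unadjusted p under 0.05, and the smallest adjusted p was 0.953. The labels do not say whether the libraries came from separate animals, so these p-values measure only the spread between libraries.

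The next question was where along the bins the signal lies. In set 1, the 10 highest bins held 59.6% to 73.1% of the signal of a ligand gene in CTRL and 39.5% to 64.7% in Psat1KO. In set 2, the deeper set, they held 41% to 52.6% in CTRL and 36.8% to 51.7% in Psat1KO. Sparse reads by themselves place signal in few bins, and these shares were not set against those of other genes. A bin was counted as covered when its signal reached 0.5 of the library's step. By that count Dkk2 had 28 and 56 covered bins in CTRL and 27 and 46 in Psat1KO (set 1, then set 2). Fgf2 had the fewest covered bins in a library, 17 in CTRL of set 1.

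In Wnt5a, bins 14 and 61 were among the 10 highest in every library. Bin 14 had a signal of 0.147 and 0.170 in CTRL and 0.360 and 0.220 in Psat1KO, and it was the highest bin of both Psat1KO libraries. It was higher in both Psat1KO libraries than in either CTRL library, which is favoured for a bin that is the highest of both Psat1KO libraries. The share of such bins over other genes was not taken. In CTRL of set 1 the step was 0.0442, so few reads stand behind 0.147. Bin 61, the highest bin of the CTRL library of set 2, had 0.0884 and 0.259 in CTRL and 0.0753 and 0.132 in Psat1KO, where the groups overlapped.

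In Dkk2, bins 43 and 76 were among the 10 highest in every library. Bin 43 had a steady 0.134 and 0.130 in CTRL and 0.0978 and 0.113 in Psat1KO. Bin 76 had 0.220 and 0.10 in CTRL and 0.134 and 0.0720 in Psat1KO. Bin 84 was the highest bin of both Psat1KO libraries, at 0.262 and 0.132, against 0.0442 and 0.115 in CTRL. Higher Psat1KO values are favoured for a bin chosen in that way. The adjoining bin 83 was the highest of the CTRL library of set 2. It had 0 and 0.174 in CTRL and 0.228 and 0.0847 in Psat1KO, so the groups overlapped there. Bins 39 and 41 were the highest of the CTRL library of set 1, with 0.316 and 0.265. Bin 39 had 0.11 in the CTRL library of set 2 and 0.0327 and 0.0414 in Psat1KO, and bin 41 had 0.0133 to 0.0327 in the other 3 libraries. The lower Psat1KO level of Dkk2 remained with every bin limited to a signal of 0.1 (log2 difference -0.30 in place of -0.38) and without the highest bin of each library (-0.39), both settings chosen after seeing the data.

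By the cut at the 10 highest bins, Jag1 and Fgf2 had 1 bin each shared by every library, beside 2 each in Wnt5a and Dkk2. By bins covered in all 4 libraries, Jag1 had the most of the 4 genes, 10. The step was 0.0442 in CTRL of set 1, so a signal of 0.0884 there rests on few reads. For Jag1 the shared bin was 26, with 0.0884 and 0.0839 in CTRL and 0.134 and 0.0847 in Psat1KO. Its neighbours 25 and 27 were covered in all 4 libraries too. In Fgf2 that bin was 45, with 0.0884 and 0.10 in CTRL and 0.0655 and 0.0573 in Psat1KO. The highest single bin of Fgf2 was bin 16 in the Psat1KO library of set 2, at 0.172, where the other 3 libraries had 0.0287 to 0.0442.

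**Figure D3:**
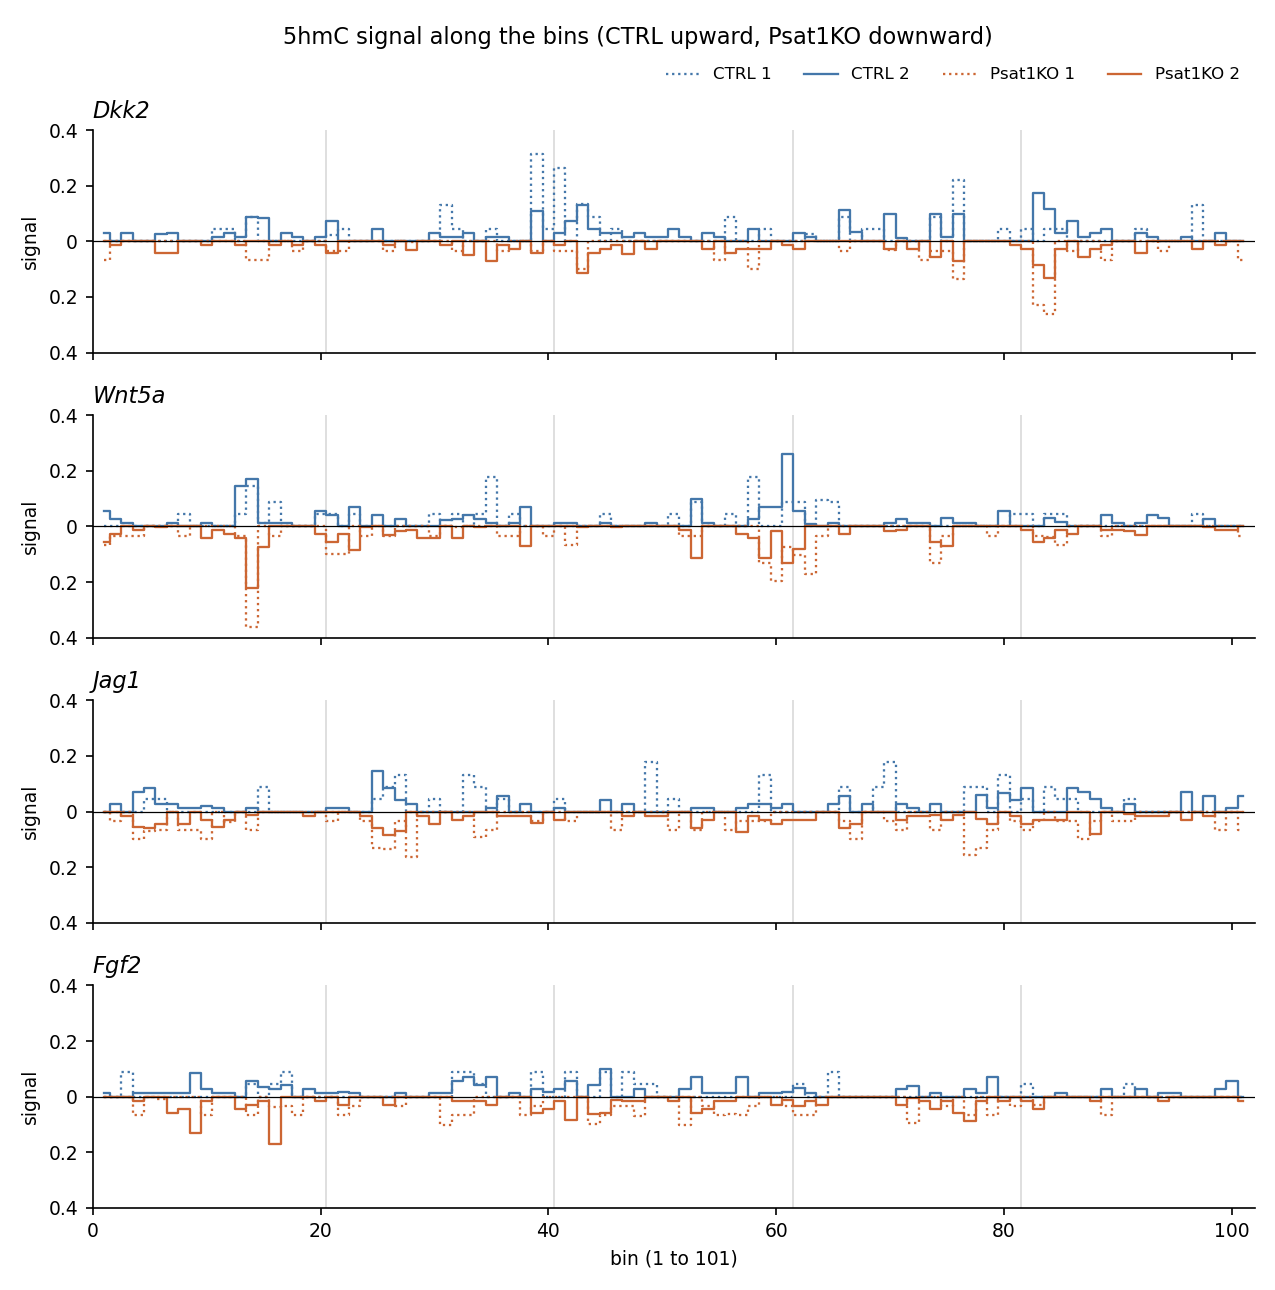
The signal in each bin is drawn for the 4 ligand genes, with CTRL upward in blue and Psat1KO downward in orange, dotted for set 1 and solid for set 2, and grey lines mark the borders of the 5 stretches of bins compared. Peaks in the same bin above and below the zero line recur in both genotypes, such as bin 14 of Wnt5a and bins 43 and 76 of Dkk2.

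The profile of a gene recurred between libraries to a degree that differed among the members. The mean Pearson r over the bins, taken over the 6 pairs of libraries, was 0.482 for Wnt5a, 0.459 for Dkk2, 0.263 for Jag1 and 0.261 for Fgf2, where the median UP gene had 0.418. Between the deep libraries, CTRL and Psat1KO of set 2, r was 0.712 for Wnt5a, 0.563 for Dkk2, 0.396 for Jag1 and 0.395 for Fgf2, against a median of 0.605. Profiles of different ligand genes in the same library had a median r between -0.036 and 0.011. These correlations are descriptions, since neighbouring bins can share reads and r depends on depth. For Dkk2 the highest r of the 6 pairs, 0.691, was between CTRL of set 2 and Psat1KO of set 1.

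Covered in all 4 libraries were 7 bins of Dkk2, 8 of Wnt5a, 10 of Jag1 and 8 of Fgf2, with a median of 9 over the UP genes. Bins covered in both Psat1KO libraries and no CTRL library numbered 6 in Wnt5a, 5 in Jag1, 3 in Fgf2 and 1 in Dkk2, with a median of 3. Bins covered in both CTRL libraries and no Psat1KO library numbered 4 in Wnt5a, 3 in Dkk2, 1 in Jag1 and 0 in Fgf2, with a median of 2. In Wnt5a the former included bin 74, with 0.131 and 0.0573 in Psat1KO, and the latter bin 35, with 0.177 and 0.0143 in CTRL. Many such bins rest on 1 step of signal in a library.

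The bins were then joined into 5 stretches. For Dkk2 the Psat1KO libraries lay below the CTRL libraries in the 3 middle stretches. In bins 62 to 81 its signal was 0.0279 and 0.0260 in CTRL and 0.0166 and 0.0114 in Psat1KO, with ratios of 0.597 and 0.438 in set 1 and set 2. In bins 21 to 40 the ratios were 0.304 and 0.905, and in bins 41 to 61 they were 0.492 and 0.835. These 2 stretches hold bins 39 and 41, the highest of the CTRL library of set 1 at 0.316 and 0.265. The separation of the groups in both stretches leans on those bins, so no even loss from bin 21 to bin 81 is read from it. At the ends the sets disagreed, with ratios of 1.3 and 0.422 in bins 1 to 20 and 2.22 and 0.816 from bin 82 to the last. The last stretch holds bins 83 and 84, and over that stretch the mean of the Psat1KO libraries was 1.31 times that of CTRL, with overlapping groups. Both Psat1KO libraries lay below both CTRL libraries in 13.5% of all 1100 stretches of UP genes, and above both in 17.7%.

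The other members each had 1 stretch in which the groups did not overlap, and in each it was Psat1KO that was higher. Over all UP genes, 17.7% of stretches had both Psat1KO libraries above both CTRL libraries, and 13.5% had both below. No direction common to the members is read from so few stretches. For Wnt5a the stretch was bins 1 to 20, which hold the peak at bin 14. The signal was 0.0190 and 0.0272 in CTRL and 0.0311 and 0.0274 in Psat1KO. The ratio there was 1.64 in set 1 and 1.01 in set 2. The separation leans on bin 14, so this stretch is no observation apart from that bin. For Jag1 it was the same stretch, with 0.00884 and 0.0161 in CTRL and 0.0299 and 0.0178 in Psat1KO and ratios of 3.38 and 1.1. In the CTRL library of set 1, only bins 5, 6 and 15 of this stretch were covered. With a step of 0.0442 in that library, the ratio of 3.38 rests on few reads.

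For Fgf2 it was bins 62 to 81, with 0.00663 and 0.0119 in CTRL and 0.0211 and 0.0178 in Psat1KO. The ratios were 3.18 in set 1 and 1.5 in set 2. In the CTRL library of set 1, only bins 62 and 65 of this stretch were covered, so the ratio of 3.18 rests on few reads. The bins of Fgf2 from 82 to the last were low in every library, at 0.00442 and 0.00930 in CTRL and 0.00479 and 0.00503 in Psat1KO, where the mean UP gene had 0.0226 with bins limited to 0.5. A limma fit over all 1365 gene and stretch values called 0 at an adjusted p under 0.05, 0% of those tested, with 45 at an unadjusted p under 0.05.

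**Figure D4:**
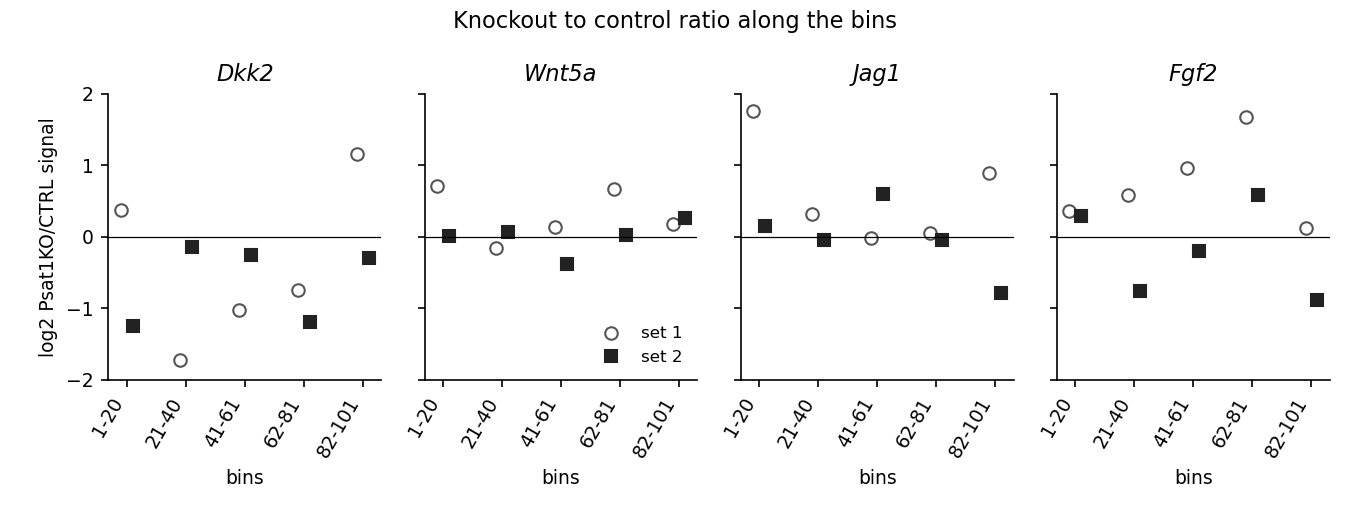
The log2 ratio of Psat1KO to CTRL signal (no pseudocount) is plotted for each stretch of bins and ligand gene, open circles for set 1 and filled squares for set 2. Both sets lie below 0 for Dkk2 in the stretches from bin 21 to bin 81, and in each of the 4 genes the sets lie on opposite sides of 0 in at least 2 stretches.

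Other genes of these pathways were few in the tables. Of 156 genes on 7 lists of Wnt, Notch and FGF ligands, modulators, receptors and targets, the tables hold 6, which are the 4 ligand genes, Ror2 and Fgf7. None of them was called, against the 0% of all genes. Ror2, a receptor of Wnt5a, had 0.0183 and 0.0239 in CTRL and 0.0235 and 0.0258 in Psat1KO, with ratios of 1.28 and 1.08. Fgf7, a growth factor that acts mainly on epithelial cells, had 0.0175 and 0.0189 in CTRL and 0.0119 and 0.0180 in Psat1KO, with ratios of 0.678 and 0.951. In both genes the groups overlapped. No Notch receptor or target and no FGF receptor of the lists is in the tables.

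A further list of 64 secreted ligands had 13 genes in the tables, all marked UP. Of these, 4 were higher in Psat1KO in both sets, Ccl2, Adm and Kitl among them, and 3 were lower in both, namely Grem1, Pdgfd and Lif. Over all UP genes these shares were 30% and 22.7%. The median log2 difference of the 13 genes was 0.012, beside 0.013 over all UP genes. Kitl, which encodes stem cell factor, had 0.0201 and 0.0192 in CTRL and 0.0262 and 0.0239 in Psat1KO, and Ccl2, a chemokine, had 0.0149 and 0.0187 against 0.0225 and 0.0224. In both the groups did not overlap. Pdgfd, a platelet-derived growth factor, had 0.0176 and 0.0158 in CTRL and 0.0153 and 0.0156 in Psat1KO, and there too the groups did not overlap. Thus 2 of the 13 genes had both Psat1KO libraries above both CTRL libraries and 1 had both below, where the shares over all UP genes were 16.8% and 12.7%.

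For each ligand gene, the UP genes with the most similar pattern over the 4 libraries were found by the root mean square difference of log2 levels, each gene centred on its own mean, among 214 UP genes with a level of at least 0.005 in every library. Nearest to Dkk2 were Dcn, the matrix proteoglycan decorin, at 0.066, and Fmn1, a formin, at 0.066, where the median UP gene lay at 0.25. Dcn had 0.0213 and 0.0207 in CTRL and 0.0159 and 0.0164 in Psat1KO. Nearest to Wnt5a were Procr, the endothelial protein C receptor, at 0.031 and Cers4, a ceramide synthase, at 0.033. Nearest to Jag1 were Adm, the peptide adrenomedullin, at 0.050 and F11r, a junctional adhesion molecule, at 0.060. Nearest to Fgf2 were Cd53, a tetraspanin, at 0.064 and S1pr3, a sphingosine-1-phosphate receptor, at 0.074. With 4 libraries many genes lie close by, and the measure says only that levels went up and down in the same libraries.

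Dcn is also a marker of fibroadipogenic progenitors, connective-tissue cells of muscle. Of 7 such markers the tables hold 6, and their summed level was 0.136 and 0.126 in CTRL and 0.139 and 0.130 in Psat1KO. Of these, 3 were higher and 2 lower in Psat1KO in both sets, where the shares over all UP genes were 30% and 22.7%. In the same genes the groups did not overlap. Over all UP genes, both Psat1KO libraries lay above both CTRL libraries in 16.8% and below both in 12.7%. Of the endothelial and the mural markers the tables hold 2 of 5 each, with summed levels of 0.0522 to 0.0667 and 0.0481 to 0.0604 over the 4 libraries. In each list 1 gene, Cdh5 and Cspg4, was higher in Psat1KO in both sets, and no gene was lower in both. Of the 4 immune and 4 glial markers the tables hold none. A 5hmC level does not count cells, and the part of other cell types in the levels of the ligand genes was not tested.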

How the data were processed

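The deposited values are a coverage signal in bins along each gene, made by the authors, in 2 tables with 1 library per genotype each. The submitters' processing notes list the mm10 build and, with no role or order, Bowtie 1.3.1, MACS 1.4.2 and Trim Galore 0.6.7. No source used here gives the binning tool, the window or the scaling. Values were taken as scaled to 1000000 reads without input correction. Background coverage thus cannot be told apart from local 5hmC, and a change shared by the whole genome would not be seen in these values.

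Libraries were assigned by the genotype heading of a block and the number of its table. Low UP values lay within 1% of a whole multiple of the library's step for 75.8% to 83.9% of values, which gave the depth. Too few were whole for a count test. limma 3.58.1 (R 4.3.3) was fitted over all 273 genes on log2(level + 0.005), 2 against 2 libraries, without a covariate, with Benjamini-Hochberg adjustment, and tested on simulated data. A pseudocount of 0.005 was used because levels lie near 0.02. On this scale folds of low levels are understated. Ratios in the text use no pseudocount. Limiting bins to 0.1, leaving out the highest bin and weighting by depth were alternatives chosen after seeing the data.

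The members and gene lists were chosen with earlier results of these data known. Named genes are the 4 members, the other genes of the lists and the 2 UP genes nearest to each member, and not every list gene is given with values. Genes were matched to RefSeq (GRCm38.p6), 268 by transcript and 5 by symbol. No promoter of Wnt5a was used here.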

Additional observations from a re-analysis of the deposited data

How the results depend on the processing

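No gene and no stretch of bins was called by limma at an adjusted p under 0.05 in any setting run, with 0 to 15 genes and 6 to 112 stretches at an unadjusted p under 0.05. The replicate block, for which the labels give no basis and 2 pairs cannot settle one, called 0 genes and 0 stretches and left the log2 differences at -0.38 for Dkk2, 0.11 for Wnt5a, 0.16 for Jag1 and 0.27 for Fgf2. Deviations of same-numbered libraries correlated at 0.22 over the UP genes and 0.37 over all genes. Without each library in turn, the log2 difference ranged from -0.43 to -0.33 for Dkk2, 0.031 to 0.19 for Wnt5a, -0.12 to 0.45 for Jag1 and 0.044 to 0.50 for Fgf2. Both ends for Wnt5a and Jag1 came from leaving out a Psat1KO library, replicate 1 for the lowest and replicate 2 for the highest. With a pseudocount of 1 the differences shrank by construction to -0.0093 for Dkk2, 0.0027 for Wnt5a, 0.0049 for Jag1 and 0.0054 for Fgf2. Dkk2 had -0.46 with a pseudocount of 0.001, -0.24 with 0.02, -0.44 with libraries scaled to their median, and -0.30 with bins limited to 0.1. With the median of the bins in place of the mean, Wnt5a turned to -0.74 and Fgf2 to -0.92, Dkk2 had -0.98 and Jag1 0.96. In set 1 most bins lie at or near 0, so that median holds little of the signal.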
